A study of Mus musculus with 20 samples.

Results

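The genes described here are 10 mouse genes whose mRNAs encode selenoproteins: Selenop, Gpx1, Gpx4, Txnrd1, Txnrd2, Dio1, Selenow, Selenok, Selenos and Msrb1. They were taken by symbol from the deposited table of 53028 Ensembl genes. All 10 were found, and all 10 passed the filter on low counts. The table holds 20 liver libraries: each of 10 mice gave 1 from its total RNA and 1 from its polysome RNA. The mice were male C57BL/6J animals on a chow diet, and 5 of them (mice 1, 2, 3, 8 and 9) had received an LNA, an antisense oligonucleotide stabilized with locked nucleotides, against GFP as the control. The other 5 (mice 4, 6, 10, 11 and 12) had received an LNA against SNORA73, an H/ACA snoRNA made from introns of Snhg3. Each mouse was given 3 intraperitoneal injections of 3 mg/kg, 1 every other day from an age of 8 weeks, and the liver was taken 2 days after the last of them, while the methods for liver polysomes give an age of 10 weeks. The sample labels spell the target Snora37, and they do not say which SNORA73 LNA was injected. The methods for liver polysomes describe mice injected with cycloheximide into a tail vein shortly before death. Total RNA came from liver lysed in polysome buffer, and polysome RNA from the corresponding polysome fractions of a sucrose gradient.

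Selenoproteins contain selenocysteine, which the ribosome inserts at a UGA codon that elsewhere ends translation. The insertion needs a stem-loop in the 3′ UTR (the SECIS element), the protein SECISBP2 that binds it, the elongation factor EEFSEC and a dedicated tRNA. Where selenium is scarce, a UGA can be read as a premature stop, and some selenoprotein mRNAs, of which Gpx1 is the best known, are then degraded by nonsense-mediated decay. The liver is the main source of plasma SELENOP, which carries selenium to other organs.

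Snora73a had at most 2 counts and Snora73b at most 4 counts in any library of this polyadenylated RNA, too few to show the depletion of the snoRNA. Total RNA libraries held 20005389 to 42023390 counts and polysome libraries 14852951 to 33824659, and the 10 genes together held 0.525% to 0.954% of a library. Values are given as TMM-scaled CPM, the counts of a gene per 1000000 counts of its library after scaling by the trimmed mean of M values (TMM). CPM of different genes are not compared, because a longer mRNA gives more reads. A higher CPM in polysome than in total RNA means a higher level relative to the typical mRNA of the library, and the number of ribosomes on an mRNA was not measured. Genes encoded by the mitochondrial genome held 11.2% to 15.4% of the counts in total RNA and 1.76% to 3.89% in polysome RNA. The 5 hepatocyte markers summed to 37130 to 63910 CPM in total RNA and none of them was at 0 in any group. Markers of some cell types differed between the RNAs, where 28.5% of all genes tested were higher in polysome RNA and 26.9% lower. Of 5 stellate cell markers, 4 were lower in polysome RNA (summed 119 to 179 CPM, against 177 to 268 in total RNA). All 3 erythroid markers were higher (216 to 868 CPM, against 124 to 524), but 0 of the 3 were called with the SNORA73 LNA alone. Of 5 hepatocyte markers 2 were higher, and of 5 Kupffer cell markers 1 was lower. Of 4 lymphocyte markers 1 was higher and 1 lower, and 0 of 4 cholangiocyte and 0 of 2 neutrophil markers were called. Of 5 sinusoidal endothelial markers, 3 were lower and 1 higher in polysome RNA. Their summed polysome CPM was 71.7 to 82.4 with the GFP LNA and 87.9 to 98.5 with the SNORA73 LNA, which did not overlap. Of all single genes tested in polysome RNA, 3.23% did not overlap between the LNAs, but no such share was computed for sums of 5 genes. The sums of the other marker lists overlapped there, and 0 of the 5 endothelial markers were called between the LNAs in polysome RNA. In total RNA the sums of these endothelial markers overlapped (80.3 to 99.4 and 94.7 to 108.6 CPM). There, 1 of the 5 was called higher with the SNORA73 LNA, where 4 of all 13195 genes tested were called. The part of these cells in the selenoprotein results was not tested. In whole liver, fewer cells of a type and less RNA per cell cannot be told apart.

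Polysome and total RNA were compared first, since the level of an mRNA on polysomes, relative to total RNA, bears on how well it was translated. Over all 10 mice, 7 of the 10 selenoprotein mRNAs were higher in polysome RNA, 2 were lower and 1 did not pass the test (edgeR's quasi-likelihood test, Benjamini-Hochberg FDR under 0.05). Of all 13795 genes tested, 28.5% were higher and 26.9% lower, so that 55.5% were called in either direction. The median log2 fold change, polysome over total RNA, was 0.56 for the 10 mRNAs and 0.02 for all genes tested. The 2 glutathione peroxidases had the largest positive values, with folds of 2.24 for Gpx4 and 1.90 for Gpx1. The 2 mRNAs that were lower were Selenop, at 0.574 times its level in total RNA, and Txnrd1, at 0.635 times. The log2 ratio had the same sign in all 10 mice for 8 of the 10 mRNAs, against 39.2% of all genes tested. Polysome and total RNA did not overlap over the 10 mice for 4 of them (Gpx1, Gpx4, Txnrd2 and Msrb1), against 14.8% of all genes tested. Polysome RNA was extracted by another route than total RNA, with a heparinase treatment, and differences from extraction and from loading on polysomes cannot be told apart.

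**Figure D1:**
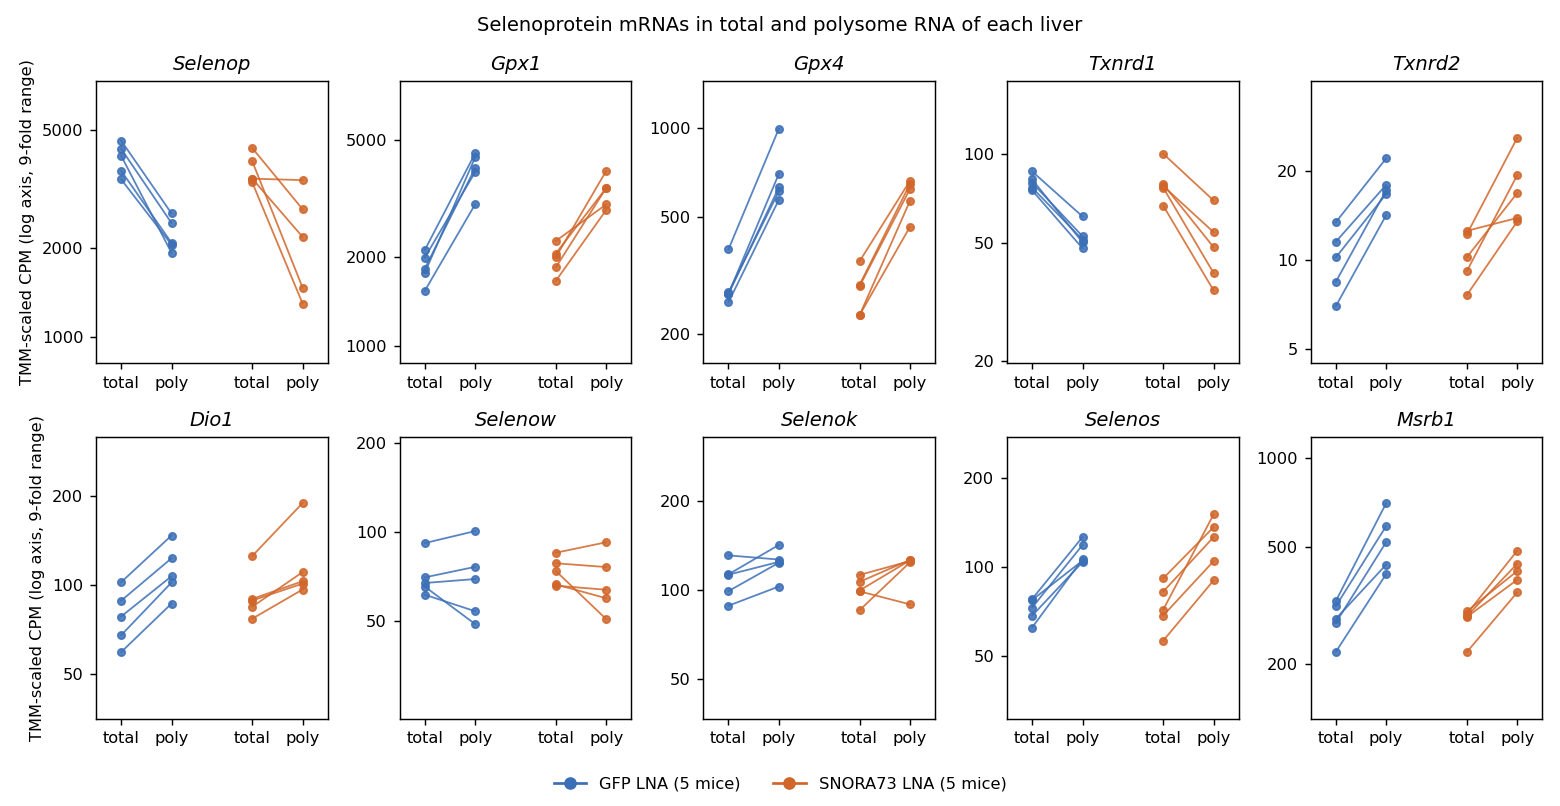
TMM-scaled CPM (log axis, spanning 9-fold in every panel) of the 10 selenoprotein mRNAs in total and polysome (poly) RNA, with a line joining both libraries of a mouse. Lines rise in all 10 mice for Gpx1, Gpx4, Txnrd2, Dio1, Selenos and Msrb1 and fall in all 10 for Selenop and Txnrd1, while those of Selenow and Selenok go both ways.

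Gpx4 (ENSMUSG00000075706, chromosome 10, 80047166 to 80056439 in GRCm38.p6) encodes the glutathione peroxidase that reduces lipid hydroperoxides in membranes and restrains ferroptosis. It was at 274, 274, 257, 277 and 387 CPM in total RNA of GFP LNA mice 1, 2, 3, 8 and 9, and at 628, 698, 570.3, 609 and 992 CPM in their polysome RNA. SNORA73 LNA livers had Gpx4 at 294, 291, 232, 353 and 232 CPM in total RNA (mice 4, 6, 10, 11 and 12) and at 644, 619.5, 462, 661 and 565 CPM in polysome RNA, and this order of mice is kept below. The lowest polysome library lay above the highest total library, and mouse 9 was the highest in both RNAs. The log2 fold change, polysome over total, was 1.16 (SE 0.12, FDR = 4.44e-08 from edgeR), and 97.3% of all genes tested had a lower value.

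Gpx1 (ENSMUSG00000063856, chromosome 9, 108339080 to 108340342) encodes the abundant cytosolic glutathione peroxidase that reduces hydrogen peroxide. Gpx1 was at 1996, 1774, 1832, 1541 and 2117 CPM in total RNA of GFP LNA livers and at 3889, 4363, 4016, 3025 and 4500 CPM in polysome RNA. SNORA73 LNA livers had Gpx1 at 2004, 2061, 1666, 2273 and 1850 CPM in total RNA and at 3925, 3433, 2894, 3022 and 3437 CPM in polysome RNA. All polysome values lay above all total values, here too. Its log2 fold change was 0.93 (SE 0.09, FDR = 2.64e-08 from edgeR), higher than that of 94.5% of genes tested.

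The 2 thioredoxin reductases went opposite ways. Txnrd1 (ENSMUSG00000020250, chromosome 10, 82833951 to 82897724) encodes the cytosolic enzyme, which keeps thioredoxin reduced, and Txnrd2 (ENSMUSG00000075704, chromosome 16, 18426417 to 18479073) encodes the mitochondrial one. Txnrd1 was at 75.4, 82.1, 80.0, 77.1 and 87.4 CPM in total RNA of GFP LNA livers and at 48, 50.3, 52.7, 51.3 and 61.5 CPM in polysome RNA. With the SNORA73 LNA, Txnrd1 was at 78, 79.1, 100.3, 77 and 67 CPM in total RNA and at 54.4, 48.4, 69.7, 39.6 and 34.6 CPM in polysome RNA. Its polysome value was below its total value in every mouse, although the polysome library of mouse 10 (69.7) exceeded the total library of mouse 12 (67.0). This gave a log2 fold change of −0.65 (SE 0.11, FDR = 2.2e-05 from edgeR).

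Txnrd2 was at 11.6, 13.5, 10.2, 8.46 and 7 CPM in total RNA of GFP LNA livers and at 18, 22.1, 16.8, 17.3 and 14.2 CPM in polysome RNA. SNORA73 LNA livers had Txnrd2 at 10.2, 12.6, 7.63, 9.2 and 12.3 CPM in total RNA and at 16.9, 13.9, 13.6, 19.4 and 26 CPM in polysome RNA. Its highest total value (13.46) lay just under its lowest polysome value (13.55), and it rested on the fewest counts of the 10, between 151 and 624 per library. The log2 fold change was 0.79 (SE 0.14, FDR = 5.36e-05 from edgeR). Within a mouse, the log2 ratio of Txnrd2 exceeded that of Txnrd1 in 10 of 10 mice, by 0.853 to 2.04.

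Msrb1 (ENSMUSG00000075705, chromosome 17, 24736593 to 24742778) encodes a reductase that repairs oxidized methionine in proteins. Msrb1 was at 285, 276, 314, 220.1 and 327 CPM in total RNA of GFP LNA livers and at 434, 518, 587, 404 and 702 CPM in polysome RNA. With the SNORA73 LNA, Msrb1 was at 296, 302, 219.8, 289 and 291 CPM in total RNA and at 484, 414, 350.1, 386 and 437 CPM in polysome RNA. The 10 polysome libraries all stood above the 10 total libraries, and the log2 fold change was 0.73 (SE 0.10, FDR = 5.36e-06 from edgeR).

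Selenos and Selenok encode small membrane proteins of the endoplasmic reticulum that take part in the degradation of misfolded proteins. Selenos (ENSMUSG00000075701, chromosome 7, 66079649 to 66089405) was at 73, 62.5, 78.1, 77.5 and 68.5 CPM in total RNA of GFP LNA livers and at 119, 106, 126, 105 and 104 CPM in polysome RNA. SNORA73 LNA livers had Selenos at 91.7, 68.6, 82.7, 71.8 and 56.4 CPM in total RNA and at 137, 105, 126, 151 and 90.2 CPM in polysome RNA. It was higher on polysomes in every mouse, with a log2 fold change of 0.68 (SE 0.10, FDR = 6.72e-06 from edgeR), but the polysome library of mouse 12 (90.2) lay just under the total library of mouse 4 (91.7).

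Selenok (ENSMUSG00000042682, chromosome 14, 29968380 to 29975074) was at 99.1, 88.4, 113, 113 and 131 CPM in total RNA of GFP LNA livers and at 124, 103, 124, 142 and 127 CPM in polysome RNA. Livers of the SNORA73 LNA group had Selenok at 112, 98.9, 106, 99.6 and 85.3 CPM in total RNA and at 125, 89.4, 126, 126 and 124 CPM in polysome RNA. The groups overlapped, and 8 of 10 mice had the higher value on polysomes. Selenok had a log2 fold change of 0.21 (SE 0.09, FDR = 0.048 from edgeR), a call that was lost in 14 of 19 alternative analyses, with FDR values up to 0.172.

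Dio1 (ENSMUSG00000034785, chromosome 4, 107291465 to 107307168) encodes the deiodinase of liver and kidney that converts thyroxine to the active thyroid hormone. Dio1 was at 88.5, 59.3, 78.2, 67.6 and 102 CPM in total RNA of GFP LNA livers and at 123, 86.5, 107, 102 and 147 CPM in polysome RNA. SNORA73 LNA livers had Dio1 at 84.4, 76.9, 125, 88.6 and 89.7 CPM in total RNA and at 111, 96.6, 189, 101 and 103 CPM in polysome RNA. The groups overlapped, with mouse 10 the highest in both RNAs, while within each mouse the polysome value was the higher one. The log2 ratios per mouse ran from 0.189 to 0.595. Taken over the 10 mice, Dio1 had a log2 fold change of 0.44 (SE 0.14, FDR = 0.00984 from edgeR).

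Selenow (ENSMUSG00000041571, chromosome 7, 15917208 to 15922371) encodes a small thioredoxin-fold protein. Selenow was at 65.5, 70.3, 67.3, 61.5 and 91.9 CPM in total RNA of GFP LNA livers and at 48.9, 76.4, 69.4, 54 and 101 CPM in polysome RNA. Livers given the SNORA73 LNA had Selenow at 85.2, 73.9, 66.6, 78.5 and 65.9 CPM in total RNA and at 92.5, 50.8, 59.8, 76.2 and 63.9 CPM in polysome RNA. It was the 1 mRNA of the 10 that did not pass the test, with 4 mice higher and 6 lower on polysomes. The log2 fold change was −0.07 with a 95% interval of −0.33 to 0.20 (FDR = 0.671 from edgeR).

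Selenop (ENSMUSG00000064373, chromosome 15, 3270767 to 3280510) is unusual among selenoprotein mRNAs in carrying many UGA codons for selenocysteine in a single reading frame. Selenop was at 3417, 4336, 3653, 4108 and 4622 CPM in total RNA of GFP LNA livers and at 2055, 2431, 2082, 1928 and 2619 CPM in polysome RNA. With the SNORA73 LNA, Selenop was at 3437, 3434, 4363, 3340 and 3939 CPM in total RNA and at 2182, 3396, 2707, 1298 and 1469 CPM in polysome RNA. With the GFP LNA every polysome library lay below every total library. With the SNORA73 LNA the polysome values spread far more (CV 39.4%, against 13.02% with the GFP LNA), and in mouse 6 the polysome and total values were almost equal. Among the 10 mRNAs the CV in polysome RNA differed between the LNAs in both directions. It was 27.8% against 9.81% for Txnrd1, but 13.6% against 24.3% for Gpx4 and 12.3% against 22.7% for Msrb1. The log2 ratios were −0.73, −0.83, −0.81, −1.09 and −0.82 in GFP LNA mice and −0.66, −0.02, −0.69, −1.36 and −1.42 in SNORA73 LNA mice. The log2 fold change over all mice was −0.80 (SE 0.14, FDR = 5.23e-05 from edgeR), and 11.9% of genes tested had a lower value. Ccdc152, which overlaps the Selenop locus, reached 74.7 CPM.

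The same comparison within each LNA group gave the same directions. With the GFP LNA, 6 of the 10 mRNAs were higher on polysomes and 2 lower, where 21.8% and 21% of all genes tested were (42.8% in either direction), and 7 of the 10 had groups that did not overlap, against 35% of all genes tested. With the SNORA73 LNA, 5 were higher and 2 lower, where 19.7% and 18.2% of all genes tested were (38% in either direction), and 4 of the 10 did not overlap, against 22.7% of all genes tested. Dio1 was the mRNA that differed in its call. Its log2 fold change was 0.52 with the GFP LNA (FDR = 0.0381 from edgeR) and 0.37 with the SNORA73 LNA (FDR = 0.145), and with the mouse as a replicate block the second value was 0.34 (FDR = 0.0012). The difference between both values was −0.15 (95% interval −0.72 to 0.43), which the test of that difference did not call. Leaving out any 1 of the GFP LNA mice took the GFP LNA call of Dio1 past the threshold, with FDR values of 0.0578 to 0.095 at log2 fold changes of 0.49 to 0.53.

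**Figure D2:**
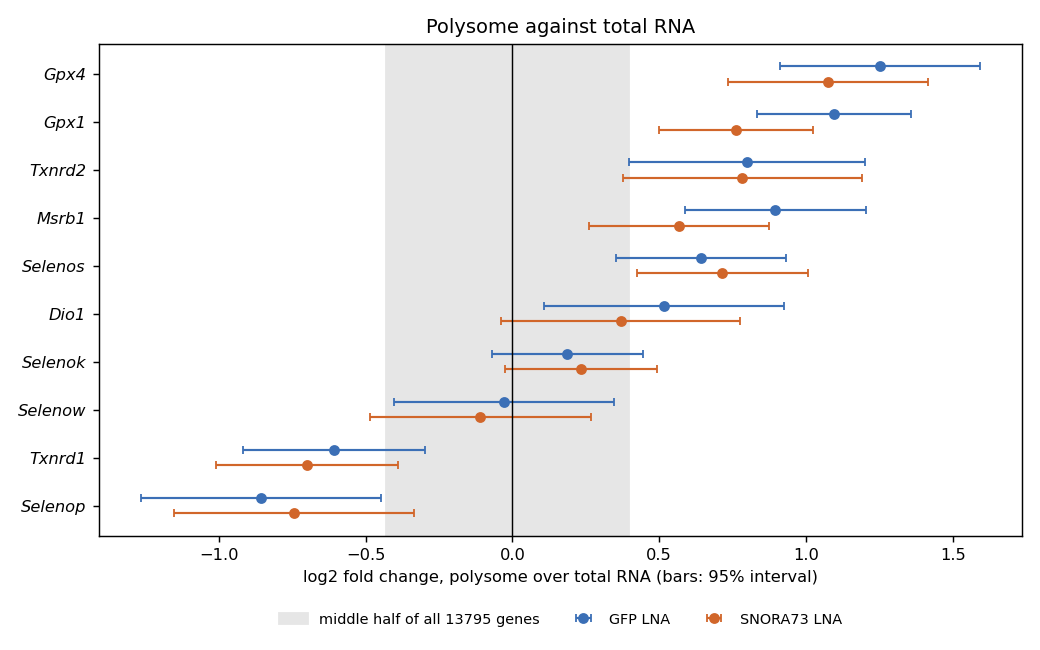
Log2 fold change, polysome over total RNA, of each selenoprotein mRNA in GFP LNA (blue) and SNORA73 LNA (orange) livers, 5 mice each, with 95% intervals from edgeR. The grey band spans the 25th to the 75th percentile of all 13795 genes tested (−0.43 to 0.40). Gpx4, Gpx1, Txnrd2, Msrb1 and Selenos lie to its right and Txnrd1 and Selenop to its left in both groups.

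The effect of the SNORA73 LNA was then tested in each RNA, the question being whether loss of this snoRNA changed the level or the loading of selenoprotein mRNAs. None of the 10 mRNAs passed the test in total RNA, where edgeR called 4 of 13195 genes (0.0303%, all of them higher) and 1141 genes had an unadjusted p under 0.05, and 0 of these were among the 10. None passed in polysome RNA either, where 2 of 13060 genes were called (0.0153%) and 1755 had an unadjusted p under 0.05, again 0 of them among the 10. DESeq2 and limma-voom also called 0 of the 10 in each RNA, although DESeq2 called 68 genes in all in total RNA and 282 in polysome RNA. Without mice 9 and 10 edgeR called 97 and 31 genes, and without mouse 9 alone 59 and 17, with 0 of the 10 among them. The SNORA73 and GFP LNA groups overlapped for every one of the 10 mRNAs in both RNAs, while 1.84% of genes tested in total RNA and 3.23% in polysome RNA did not overlap.

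In total RNA the log2 fold changes, SNORA73 over GFP LNA, lay between −0.12 (Selenop) and 0.23 (Dio1, 95% interval −0.13 to 0.60), with a median of 0.02 against 0.01 for all genes tested. The 95% intervals, each for a single gene and not adjusted for the number of genes, show how precise these estimates were under TMM scaling. Txnrd1 had the narrowest, from −0.24 to 0.24, and Txnrd2 the widest, from −0.36 to 0.43. Mean levels with the GFP and the SNORA73 LNA were 1852 ± 220 and 1971 ± 228 CPM for Gpx1, 294 ± 52.9 and 280 ± 50.6 CPM for Gpx4, and 4027 ± 492 and 3703 ± 438 CPM for Selenop (SD, n = 5). Each of these differences was smaller than 1 SD.

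In polysome RNA the largest difference was that of Msrb1, whose mean was 529 ± 120 CPM with the GFP LNA and 414 ± 50.9 CPM with the SNORA73 LNA (SD, n = 5). Its log2 fold change was −0.36 (95% interval −0.71 to 0.00, unadjusted p = 0.0501, FDR = 0.373 from edgeR). Gpx1 and Gpx4 followed at −0.25 each, with intervals of −0.56 to 0.07 and −0.61 to 0.11. The other 7 lay between −0.10 (Txnrd1) and 0.11 (Selenos). Mouse 9 had the highest polysome library of the GFP LNA group for all 3 mRNAs. Leaving out that mouse could thus only be expected to make these 3 negative values smaller in size. Without it they were −0.23 for Msrb1, −0.19 for Gpx1 and −0.08 for Gpx4, and without mice 9 and 10 they were −0.17, −0.14 and −0.01. Selenop had the widest interval, from −0.52 to 0.49.

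**Figure D3:**
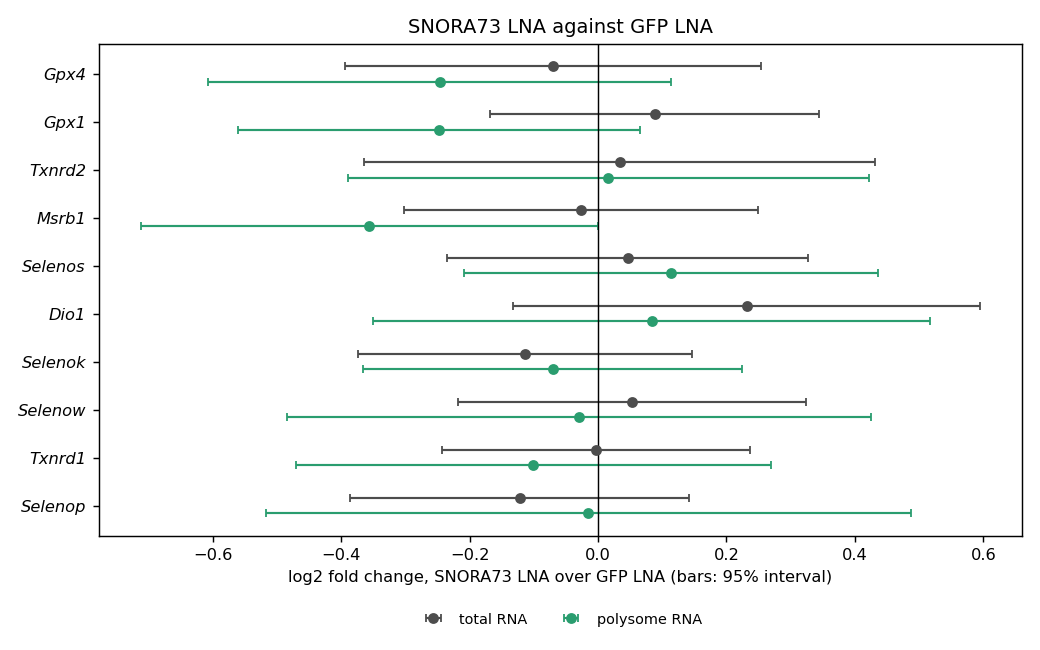
Log2 fold change, SNORA73 LNA over GFP LNA, of each selenoprotein mRNA in total RNA (grey) and polysome RNA (green), 5 mice per group, with 95% intervals from edgeR. All intervals reach or cross 0, and the lowest value is that of Msrb1 in polysome RNA (−0.36).

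Loading, the polysome-over-total ratio, was compared between the LNAs as the interaction of both factors over all 20 libraries. In this fit the 2 libraries of a mouse were not paired, so its p-values and intervals leave out that link. None of the 10 mRNAs passed this test either, in which edgeR called 1 of 13795 genes (0.00725%) and 401 had an unadjusted p under 0.05, with 0 of them among the 10. DESeq2 and limma-voom also called 0 of the 10. With the mouse as a replicate block in edgeR, which pairs the libraries, 0 of the 10 and 1 gene in all were called. Gpx1 had the largest difference, −0.33 on the log2 scale (95% interval −0.70 to 0.03, unadjusted p = 0.0725, FDR = 1 from edgeR). Its log2 ratios were 0.96, 1.30, 1.13, 0.97 and 1.09 in GFP LNA mice and 0.97, 0.74, 0.80, 0.41 and 0.89 in SNORA73 LNA mice, which overlapped between GFP LNA mouse 1 and SNORA73 LNA mouse 4. Msrb1 followed at −0.33 (95% interval −0.76 to 0.11), with log2 ratios of 0.61, 0.91, 0.90, 0.88 and 1.10 and 0.71, 0.45, 0.67, 0.42 and 0.59. For the other 8 mRNAs the differences lay between −0.18 (Gpx4) and 0.11 (Selenop).

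The remaining selenoprotein genes spread as widely. Of 14 listed, 10 were tested, while Gpx2, Dio2, Dio3 and Selenov did not pass the filter on low counts. On polysomes, over all 10 mice, 4 were higher, 2 lower and 4 not called, with a median log2 fold change of 0.21. These 6 calls among 10 genes stand beside the 55.5% called among all genes tested. Higher were Selenoh (1.05), a nucleolar redox protein, Gpx3 (0.92), the plasma glutathione peroxidase, Selenom (0.72), a protein of the endoplasmic reticulum, and Sephs2 (0.57), which makes the selenophosphate used in selenocysteine synthesis and is itself a selenoprotein. Lower were Selenot (−1.16), a redox protein of the endoplasmic reticulum, and Selenoi (−0.77), an enzyme of phosphatidylethanolamine synthesis. Over all 24 selenoprotein genes, 20 were tested, and 11 of them were higher while 4 were lower (median 0.36), beside 28.5% and 26.9% of all genes tested.

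Among 10 genes listed as selenocysteine machinery, 6 were higher on polysomes, 3 lower and 1 not called (median log2 fold change 0.32). Beside this list and that of selenium supply stand 28.5% higher and 26.9% lower among all genes tested. The largest values were those of Trnau1ap (0.96), which binds the selenocysteine tRNA, and Ncl (0.86), nucleolin. Ncl was at 0.51 with the GFP LNA (FDR = 0.0686 from edgeR) and at 1.21 with the SNORA73 LNA (FDR = 0.000231). Its SNORA73-over-GFP value was 1.13 in polysome RNA (unadjusted p = 0.000717, FDR = 0.113 from edgeR). In total RNA it was 0.43 (unadjusted p = 0.0106, FDR = 0.409 from edgeR). The test of the difference in loading did not call Ncl (0.70, FDR = 1). Secisbp2, the SECIS-binding protein, was higher (0.45) and its paralogue Secisbp2l lower (−0.62). Sepsecs, the synthase that forms selenocysteine on its tRNA, was lower (−0.48), as was Sephs1 (−0.44). Of 4 genes for selenium supply, 3 were tested, and Lrp1 (0.49), a lipoprotein receptor, and Scly (0.35), which frees selenium from selenocysteine, were higher. Lrp8, the SELENOP receptor of brain and testis, did not pass the filter on low counts.

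Genes that do related chemistry without selenocysteine were listed for comparison. Of 15 such genes, 9 were higher on polysomes, 4 lower and 2 not called (median 0.39). For these and for the decay factors below, the shares among all genes tested were 28.5% higher and 26.9% lower. Txn1 (1.23), the cytosolic thioredoxin that TXNRD1 reduces, was higher, while the mRNA of its reductase was lower, as given above. Txn2 (0.71), the mitochondrial thioredoxin, the peroxiredoxin Prdx5 (1.002) and Gpx7 (0.77), a glutathione peroxidase with cysteine in place of selenocysteine, were also higher. Txnip (−0.91), which binds thioredoxin, and Msrb3 (−0.85), a methionine sulfoxide reductase, were lower. Of 10 factors of nonsense-mediated decay, 6 were higher and 2 lower (median 0.69), the largest values being those of Upf3a (1.16), Upf3b (0.997), Smg6 (0.95), Upf2 (0.83), Smg9 (0.72) and Smg5 (0.66). With the GFP and the SNORA73 LNA apart, Upf3a was at 0.87 and 1.45 and Upf2 at 0.59 and 1.08, differences in loading that were not called. No gene of these lists was called between the LNAs in total RNA, in polysome RNA or in loading. At an unadjusted p under 0.05 in polysome RNA, where 13.4% of all genes tested stood, there were 1 of the 10 other selenoprotein genes tested, 2 of the 10 genes for selenocysteine, 0 of 2 for selenium supply, 2 of the 15 related genes and 3 of the 10 decay factors. In total RNA (8.65% of all genes tested) there were 0 of 10, 1 of 10, 1 of 2, 0 of 15 and 2 of 10 in the same order of lists, and in loading (2.91%) 0 of 10, 1 of 10, 0 of 3, 0 of 15 and 1 of 10.

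**Figure D4:**
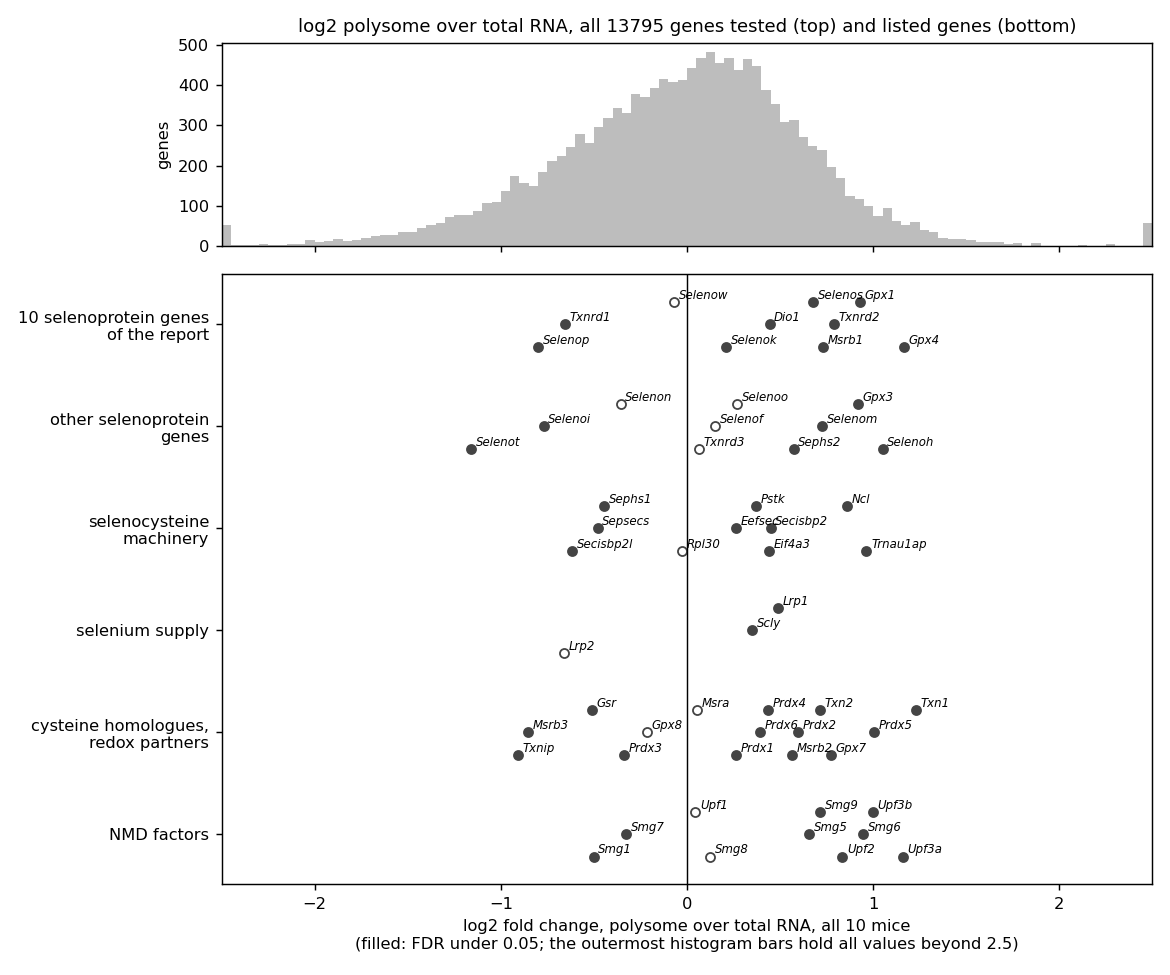
Log2 fold change, polysome over total RNA over all 10 mice, for all 13795 genes tested (histogram) and for the listed genes (points, filled where the FDR was under 0.05, staggered for legibility). Selenoprotein genes run from Selenot (−1.16) to Gpx4 (1.16), and each list of more than 3 tested genes has called members on both sides of 0.

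One feature of an mRNA that bears on its loading is its first bases. A 5′ terminal oligopyrimidine (TOP) start, a C at the first base followed by a run of C or T, marks mRNAs such as those of ribosomal proteins, whose translation responds to mTOR. The 10 genes had 17 annotated starts in RefSeq (GRCm38.p6), since Selenop, Gpx4 and Txnrd1 have several. None of the 17 began with a C followed by at least 4 further bases that were C or T, read on the gene's strand. Such starts were rare in general, at 2.51% of all 32851 annotated starts. At that share, 17 starts are too few to tell these genes from others. A link between the start and loading was not tested. The windows below hold 15 bases before the annotated start in lower case and the first 15 of the transcript in capitals, for the mRNAs at both ends of the order above. For Gpx4 the start with the longest pyrimidine run is shown, for Selenop the last of 3 starts, and for Rps6, a ribosomal protein mRNA with a TOP start, the window serves as a comparison.
Gpx4 (chr10:80053644-80053673, + strand): cgtctgagccgcttaCTTAAGCCAGCACTG
Gpx1 (chr9:108339065-108339094, + strand): gtgctacaggagctaGACCAGACCCGCCCT
Selenop (chr15:3270962-3270991, + strand): agggctataaaagtcAGTGTCAGCCTGTGG
Rps6 (chr4:86857353-86857382, − strand): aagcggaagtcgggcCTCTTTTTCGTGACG
The Gpx4 start shown has 3 pyrimidines before its first purine and that of Rps6 has 9, while those of Gpx1 and Selenop begin with a purine. Annotated starts can lie some bases from the starts used in liver, and the start used in these livers was not measured.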

How the data were processed

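The deposited table holds estimated counts per gene, which the authors made by filtering reads with fastp (Phred quality of at least 15), removing reads aligned to rRNA with bowtie, estimating transcript abundance against Ensembl transcripts with kallisto 0.46.2 and summing transcripts to genes with tximport. Libraries were poly(A)-selected and sequenced as 100 bp paired reads. Because kallisto divides reads among compatible transcripts, counts of overlapping genes and pseudogenes (Gpx4-ps2 reached 18 counts and the Selenok pseudogenes at most 3) are uncertain. Rounding made all values whole (14.3% had not been).

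Symbols were matched for 51903 of 53028 identifiers. The filter kept genes past 0.5 CPM in 4 or more libraries of a fit. After TMM normalization, edgeR 4.0.16 (R 4.3.3) was run with its quasi-likelihood test. Polysome and total RNA, and the interaction, were taken from 1 fit of all 20 libraries (4 groups), and the LNAs were compared within each RNA over 10 libraries. P-values were adjusted over all genes tested. Intervals are 95% intervals from the fit, and errors are SD over mice. The tests of polysome against total RNA over all mice, the LNAs in total RNA and the interaction were checked on simulated counts. Changes of 1 on the log2 scale were planted, and libraries were drawn independently. The check required only that the median estimate of the raised genes lay near the planted value. The other comparisons were not simulated. Smaller changes and the pairing by mouse were not part of that check.

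The mouse number of the labels pairs the 2 libraries of an animal. Correlations of their deviations from the group means ran from 0.115 to 0.542, and 9 of 10 polysome libraries were most like their own total library. No 2 libraries were identical (highest correlation 0.986). The paper left out 1 mouse per group, without naming it. All 10 mice were used here, and an analysis without mice 9 and 10, which an earlier analysis of these data took as the ones left out, was an alternative. The others were limma-voom 3.58.1, DESeq2 1.42.0, DESeq2 size factors in edgeR, library totals, other filters (no filter beyond 1 count, or a CPM above 1 in every library), mitochondrially encoded genes left out, other sets of libraries in the fit, a replicate block by mouse, and each mouse left out.

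The 10 genes and the gene lists were chosen with earlier results of these data known. The genes named were all 10, and in each other list up to 6 of those called, with the largest absolute log2 fold change, polysome over total. Sequences and positions are from RefSeq (GRCm38.p6), which had a window for 10 of the 10 genes. No genome or protein sequence was used here, so UGA codons, SECIS elements and transcript lengths were not analysed.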

Additional observations from a re-analysis of the deposited data

Results flagged for a closer look

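Of 60 sets of 5 values tested (CPM per group and log2 ratios per LNA, for each of the 10 mRNAs), 7 held a value set apart from the other 4 by Dixon's test, which chance alone flags in about 1 of 20 sets. The log2 ratio of Selenop was −1.091 in GFP LNA mouse 8, against −0.83 to −0.73 in the other 4 mice. Gpx4 was at 387.3 CPM in total RNA of GFP LNA mouse 9, against 257 to 277 CPM in the others. Dio1 stood apart in both libraries of SNORA73 LNA mouse 10, with 125.3 CPM in total RNA (76.9 to 89.7 in the others) and 189.4 CPM in polysome RNA (96.6 to 111 in the others). Msrb1 was at 219.8 CPM in total RNA of the same mouse, against 289 to 302 CPM. Selenok was at 89.38 CPM in polysome RNA of SNORA73 LNA mouse 6, against 124 to 126 CPM. The log2 ratio of Selenos was 1.071 in SNORA73 LNA mouse 11, against 0.58 to 0.68 in the others.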

How the results depend on the processing

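The number of the 10 mRNAs called between polysome and total RNA was 9 over all 10 mice and 8 or 9 under the 19 alternatives. It was 8 with the GFP LNA (7 or 8 under 20 alternatives) and 7 with the SNORA73 LNA (7 or 8). No alternative turned a called direction. Selenok (14 of 19 alternatives over all mice) and Dio1 (8 of 20 with the GFP LNA) lost their calls. The replicate block by mouse gave 9, 8 and 8 calls and added Dio1 with the SNORA73 LNA, and it changed no other call. Between the LNAs, and in loading, 0 of the 10 were called under all 19 alternatives, including the one without mice 9 and 10, though the count over all genes moved. In total RNA it went from 4 to 68 with DESeq2, 13 without a filter, 97 without mice 9 and 10 and 59 without GFP LNA mouse 9. In polysome RNA it went from 2 to 282 with DESeq2, 317 in 1 fit of all 20 libraries, 72 without a filter, 31 under the stricter filter, 31 without mice 9 and 10 and 0 with library totals, and leaving out 1 mouse gave 0 to 17. In loading it went from 1 to 7 with DESeq2 and 0 with limma-voom. Library totals in place of TMM shifted the median of all genes between the LNAs to −0.14 in total and −0.17 in polysome RNA. With 5 mice a group, the 95% intervals of the LNA differences reached 0.24 to 0.40 to either side of the estimate in total RNA, 0.30 to 0.50 in polysome RNA and 0.37 to 0.57 in loading (log2), before adjustment for the number of genes.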

Other observations

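Mouse 9, 1 of the 5 GFP LNA mice, had the highest CPM of its group for 8 of the 10 selenoprotein mRNAs in total RNA and for 7 of the 10 in polysome RNA, against 27.9% and 26% of all genes tested. The exceptions in total RNA were Txnrd2, which was lowest there (6.996 CPM), and Selenos (68.6 CPM). Its log2 ratios, polysome over total, ran from −0.82 for Selenop to 1.36 for Gpx4. This pattern was noticed after the values were seen and was not tested.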
